A study of Mus musculus with 4 samples.

Results

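The insulin-like growth factor (IGF) genes were examined in cultured mouse primary myoblasts with and without a functional Tet2 gene. The group held 10 genes, chosen by symbol as the ligands Igf1 and Igf2, the receptor gene Igf1r, the binding protein genes Igfbp2, Igfbp3, Igfbp4, Igfbp5, Igfbp6 and Igfbp7, and the adaptor gene Irs1. All 10 were found among the 24445 genes of the table. RNA was sequenced from 2 wild type (WT) and 2 Tet2 KO libraries, and all cells came from C57BL/6 mice. Satellite cells, which regenerate muscle fibres, had been sorted from hindlimb muscle as CD34+ Integrin a7+ cells lacking CD45, CD11b, CD31 and Sca1, and grown in T cell medium on collagen for at least 3 days into MyoD+ myoblasts. The Tet2 KO was constitutive, made by deletion of exon 3, so every cell of the animal carried it. The study's methods name young adult male mice as the default, and whether the 2 libraries of a group came from separate animals is not stated. Expression was read as fragment counts scaled to transcript length and to the mapped fragments of the library (FPKM), with 1 value per gene for each group. No spread between the 2 libraries of a group was therefore at hand, and none of the differences below has a replicate check or a p-value.

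IGF1 and IGF2 are secreted growth factors that act through the receptor tyrosine kinase encoded by Igf1r, which signals through adaptors such as IRS1 to PI3K, AKT and mTOR. In muscle the ligands promote both the growth of myoblasts and their differentiation, and myoblasts make IGF2 themselves as they leave the cell cycle. The secreted binding proteins hold the ligands in the medium and the matrix, where they can block or prolong their action. IGFBP7 is a more distant relative that binds IGFs weakly.

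The number of fragments per group was estimated from genes with 1 annotated transcript of at least 3000 bases, taking low FPKM values as steps of whole fragments. In Tet2 KO 81.4% of 199 low values, and in WT 85.9% of 198, lay within 0.15 of a step of a whole number, over steps 1 to 6, the step being the median of the lowest values. The values that set the step were among those counted, and the share that evenly spread values would give was not computed. These percentages are thus no independent check of the steps. The size of the step corresponded to about 53000000 fragments in Tet2 KO and 53800000 in WT, and the counting errors below rest on this estimate. Tet2 itself, on chromosome 3, had 5.79 FPKM in the KO group against 6.64 in the WT group, and this gene-level value does not show the deleted exon by itself. The myoblast markers were present in both groups, with a median log2 ratio of -0.10 over 8 genes, from -0.65 for Ncam1 to 0.28 for Vcam1. Ly6a, which encodes Sca1, a negative marker of the sort, had 278 FPKM in WT cells and 288 FPKM in cells without Tet2 after culture. The genes of the other negative markers differed more between groups for CD45 and CD11b than for CD31. Ptprc (CD45) had 5.67 FPKM in Tet2 KO and 1.36 in WT, and Itgam (CD11b) had 10.1 and 2.09. Pecam1 (CD31) had 1.48 FPKM in Tet2 KO and 1.63 in WT.

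The 10 genes spanned a wide range of levels, and both groups gave almost the same order. Igfbp5 was the most abundant, with 91.2 FPKM in KO cells and 91.7 FPKM in WT cells. Igfbp3 came next in both groups. Igf2 was the third in WT and the fourth in Tet2 KO, where it changed places with Igfbp4. Igfbp7, Irs1, Igf1r, Igfbp2, Igfbp6 and Igf1 then followed in this order in both groups. With 1 value per group, it could not be said which neighbours in this order differ beyond their spread. An average of at least 1 FPKM over both groups was reached by 9 of the 10 members, Igf1 being the exception, and by 11692 genes of the table.

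**Figure D1:**
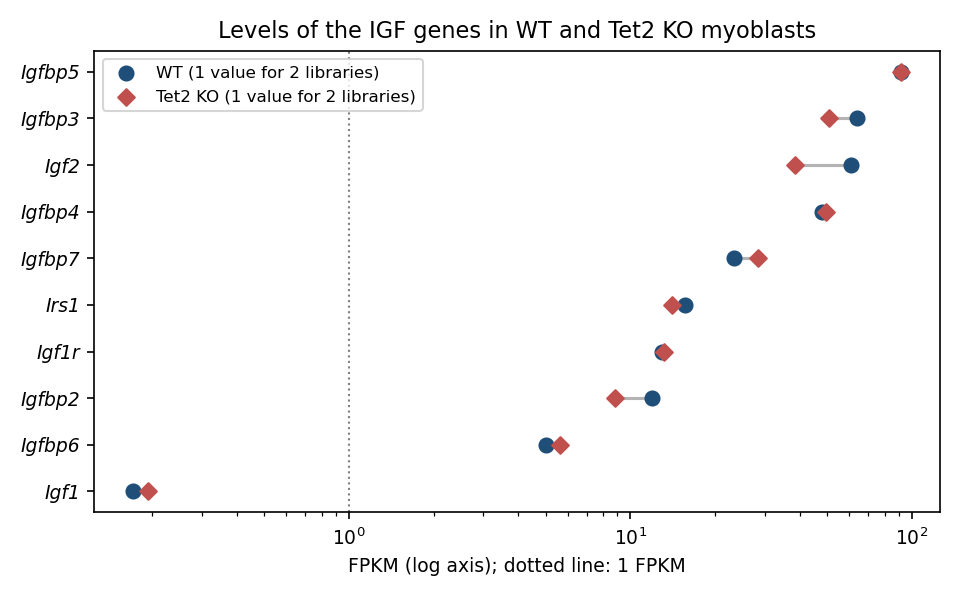
FPKM of the 10 IGF genes on a log axis, ordered by the WT level, with 1 point per group (circles, WT, diamonds, Tet2 KO) and no error bars because each value stands for 2 libraries. Igf1 lies below 1 FPKM in both groups, and the widest gap is that of Igf2, with 38.3 FPKM in the KO group against 60.8 in the WT group.

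Differences between genotypes were small for most members. On the scale of log2((Tet2 KO FPKM + 1) / (WT FPKM + 1)), where positive values mean higher levels in Tet2 KO, the 9 members averaging at least 1 FPKM had a median of -0.01. The median of all 11692 genes was -0.0044. Of these 9 members 1, Igf2, was lower by at least 1.5-fold and 0 were higher, where 2.89% of all genes were lower and 3.72% were higher by that fold. At 2-fold no member was past the limit in either direction, where 1.21% of all genes were lower and 2.08% were higher. Among the 9 members, 4 ratios were above 0 and 5 below.

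**Figure D2:**
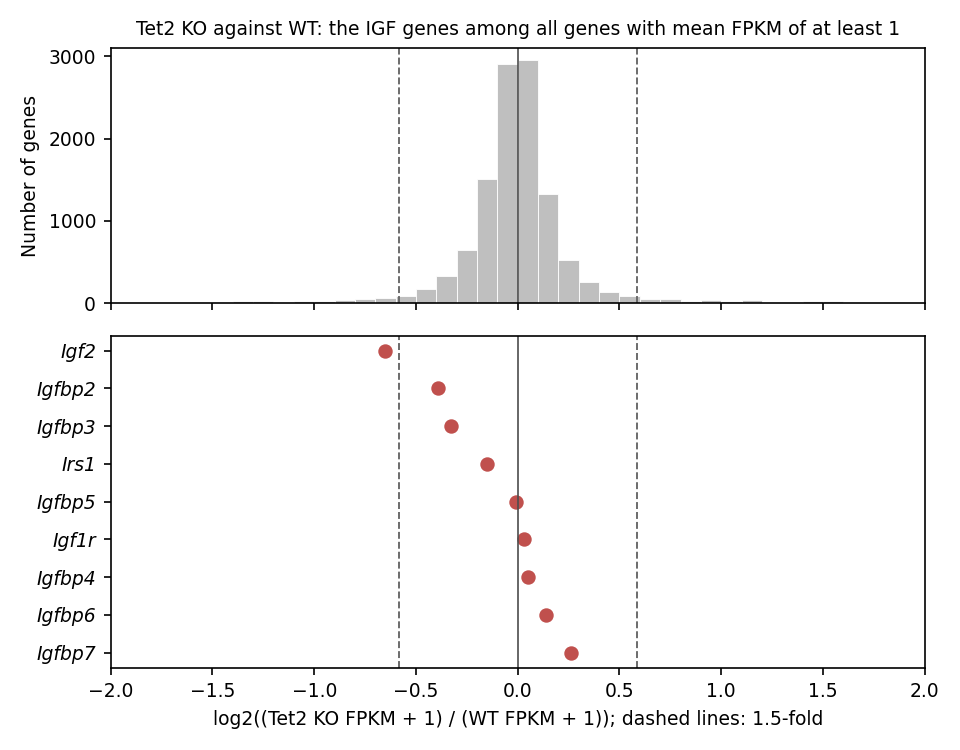
Upper panel, number of genes (of 11692) in bins of the log2 ratio of Tet2 KO to WT with a pseudocount of 1, genes beyond 2 on either side not being drawn; lower panel, the ratio of each of the 9 members on the same axis. Igf2, at -0.65, is the 1 member outside the dashed lines that mark 1.5-fold.

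Promoter sequences are shown for the 3 members with the lowest ratios and the member with the highest, since Tet2 oxidises methylated cytosines, which in mammals lie mostly in CpG pairs. They come from RefSeq (GRCm38.p6), were cut to the 250 bases before an annotated start, and were placed on mm9, the build of the table, by an exact match. They are written 5′ to 3′ on the strand of the gene, with every CG pair in capitals.
Igf2, the window farthest upstream (chr7:149852722-149852971, minus strand): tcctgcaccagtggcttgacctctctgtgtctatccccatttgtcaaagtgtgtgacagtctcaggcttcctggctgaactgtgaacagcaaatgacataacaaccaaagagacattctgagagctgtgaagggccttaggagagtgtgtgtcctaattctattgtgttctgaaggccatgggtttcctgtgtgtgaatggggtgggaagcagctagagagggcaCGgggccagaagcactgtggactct
Igf2, the window farthest downstream (chr7:149843402-149843651, minus strand): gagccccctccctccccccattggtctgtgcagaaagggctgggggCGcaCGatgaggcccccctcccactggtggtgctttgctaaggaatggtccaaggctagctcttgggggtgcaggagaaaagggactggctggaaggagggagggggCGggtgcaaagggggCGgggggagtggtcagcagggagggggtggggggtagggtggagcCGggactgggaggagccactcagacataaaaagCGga
Igfbp2, the upstream window (chr1:72870804-72871053, plus strand): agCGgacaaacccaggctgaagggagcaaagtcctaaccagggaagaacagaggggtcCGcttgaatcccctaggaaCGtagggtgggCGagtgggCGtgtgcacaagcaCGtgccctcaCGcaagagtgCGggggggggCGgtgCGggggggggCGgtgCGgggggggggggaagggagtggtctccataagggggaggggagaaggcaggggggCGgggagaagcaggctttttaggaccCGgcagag
Igfbp3 (chr11:7113927-7114176, minus strand): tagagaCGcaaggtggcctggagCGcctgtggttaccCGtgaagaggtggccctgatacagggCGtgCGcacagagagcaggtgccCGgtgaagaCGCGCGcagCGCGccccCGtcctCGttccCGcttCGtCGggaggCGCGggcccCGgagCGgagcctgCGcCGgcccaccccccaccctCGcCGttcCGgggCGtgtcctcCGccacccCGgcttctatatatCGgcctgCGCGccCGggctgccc
Igfbp7 (chr5:77837071-77837320, minus strand): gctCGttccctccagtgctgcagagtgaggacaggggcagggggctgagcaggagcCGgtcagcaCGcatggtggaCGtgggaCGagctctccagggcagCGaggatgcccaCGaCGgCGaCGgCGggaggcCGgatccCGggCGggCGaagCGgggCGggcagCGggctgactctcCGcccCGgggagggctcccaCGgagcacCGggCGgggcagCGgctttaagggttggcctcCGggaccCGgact

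All 10 members were matched in the RefSeq promoter table, with 14 windows in all because Igf2 has 4 starts and Igfbp2 has 2. Some of these windows lie in annotated exons of the same gene: the Igf1 window and the third Igf2 window with all 250 bases, the second Igfbp2 window with 65, the second Igf2 window with 34 and the Igfbp5 window with 19. The 5 windows printed above hold no exon bases. The 4 Igf2 windows held 1, 10, 22 and 6 CG pairs from upstream to downstream. Igfbp3 held 32 and Igfbp7 26, while the 2 Igfbp2 windows held 14 and 11. Among the remaining members, Igf1r held 42, Irs1 28, Igfbp4 22, Igfbp5 10, Igfbp6 7 and Igf1 5. The median over the 32851 windows of all genes was 6, and 11 of the 14 member windows lay above it. CpG-rich windows occurred both in Igfbp3, which was lower in Tet2 KO, and in Igfbp7, which was higher, each by less than 1.5-fold. These counts describe letters. No methylation values were used here, and the part of promoter methylation in the ratios was not tested.

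MyoD and other myogenic factors bind E boxes, and the study gives CAGCTG as the top consensus sequence of MyoD. The same windows were searched for the general form of the E box, CANNTG, which reads the same on both strands. A match was found in 9 of the 14 member windows, where 66.2% of all windows held one. By gene, 8 of the 10 members had a match, and the share by gene over all genes was not computed. The 2 matches of Igf2, CATTTG and CAAATG, lay in its window farthest upstream, and its other 3 windows had none. Igf1r and Igfbp7 had none in these 250 bases. The match in the upstream window of Igfbp2, CACGTG, includes a CG pair. Such a match describes letters and does not show that a factor binds there.

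Igf2 showed the largest difference of the group. This gene encodes the ligand that myoblasts themselves produce and is expressed from the paternal allele. It lies on chromosome 7, from 149836673 to 149856261 in the table (mm9, as for all positions given here), on the minus strand, with 9 annotated transcripts. It had 60.8 FPKM in WT cells and 38.3 FPKM in cells without Tet2, a level 1.59-fold higher in WT. The log2 ratio was -0.65 with the pseudocount and -0.66 without it. By ratio, 2.48% of the 11692 genes lay below Igf2, and the central 95% of all genes ran from -0.65 to 0.88. By level, Igf2 was number 1571 of the table in WT and number 2511 in Tet2 KO. Counting error, the Poisson SE of the log2 ratio from the approximate fragment numbers, was 0.07 if all fragments came from the shortest annotated transcript, taken at full length. It leaves out the spread between libraries. The gene-level FPKM does not tell its 4 starts apart. The table gives Igf2os, an antisense transcript, and Mir483 the same locus, and the kit did not mark strand. Igf2os had 0.31 and 0.314 FPKM and Mir483 was listed at 0 in both groups.

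Genes of differentiated muscle were lower in Tet2 KO throughout. All 16 differentiation markers were lower by at least 1.5-fold, beside 2.89% of all genes. They were chosen with earlier results of these data known, so this count is no independent finding. Their median was -1.29, from -1.92 for Tnnc2, which encodes fast troponin C, to -0.92 for Actc1, which encodes cardiac actin. Their summed level was 1742 FPKM in KO cells and 4319 FPKM in WT cells, and none was at 0. The ratio of Igf2 was thus smaller in size than that of every one of these 16 genes. In bulk RNA, fewer differentiating cells and less RNA per cell cannot be told apart, and the part of differentiation in the Igf2 difference was not tested.

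The neighbours of Igf2 were examined within 200 kb on either side, a choice made after the values were seen. H19, the noncoding RNA that is expressed from the maternal allele and shares enhancers with Igf2, starts at -75.2 kb, counted from the lower end of the Igf2 locus. It had 1408 FPKM in the KO group against 1740 in the WT group, a log2 ratio of -0.30 that did not reach 1.5-fold. The H19 level was 36.7 times that of Igf2 in Tet2 KO and 28.6 times in WT. Mrpl23, a mitochondrial ribosomal protein gene beyond H19, had a ratio of 0.15. Nctc1, between Mrpl23 and H19, averaged below 1 FPKM, with 0.168 FPKM in Tet2 KO and 0.709 in WT, a ratio of -0.55. Tnnt3, which encodes fast skeletal troponin T and lies farther along the chromosome, had -1.38, and Lsp1 and Prr33 of the same locus had -0.19 and -0.29. Ins2, the insulin gene next to Igf2, was listed at 0 in Tet2 KO and had 0.134 FPKM in WT. The genes of this region averaging at least 1 FPKM were Lsp1, Prr33, Tnnt3, Mrpl23, H19 and Igf2. Of these, Igf2 and Tnnt3 were lower by at least 1.5-fold, beside 2.89% of all genes. The region was set around Igf2 itself, and Tnnt3 is also 1 of the 16 differentiation markers, so the count describes no regional pattern.

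**Figure D3:**
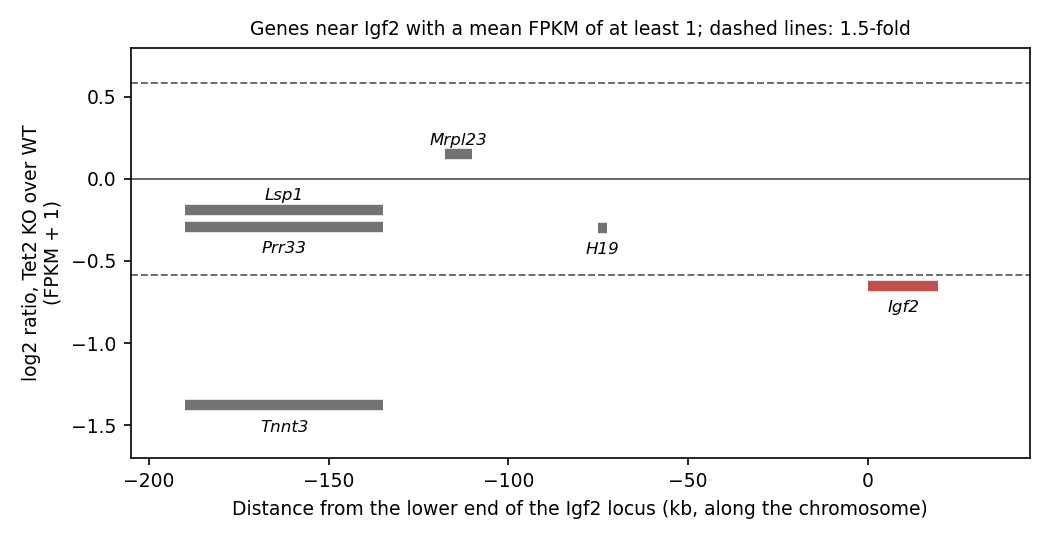
Genes within 200 kb of Igf2 averaging at least 1 FPKM, drawn as bars from start to end at their distance in kb from the lower end of the Igf2 locus (x axis), against the log2 ratio of Tet2 KO to WT (y axis). Igf2 at -0.65 and Tnnt3 at -1.38 lie below the 1.5-fold line, with H19 at -0.30 and Mrpl23 at 0.15 between them.

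Igf1 was close to absent. It encodes the ligand that liver and many tissues secrete, and macrophages are a known source of it in injured muscle. Igf1 lies on chromosome 10 from 87321010 to 87399792 and had 0.171 FPKM in WT cells and 0.193 FPKM in cells without Tet2. The Igf2 level was 199 times that of Igf1 in Tet2 KO and 356 times in WT. Depending on the transcript, the Igf1 values correspond to about 5.21 to 72.7 fragments in Tet2 KO and 4.69 to 65.4 in WT. The log2 ratio was 0.17 without the pseudocount, beside a counting error of 0.92 for the shortest transcript. Macrophage markers were higher in Tet2 KO. Of the 10 macrophage markers 8 averaged at least 1 FPKM, and 7 of these were higher by at least 1.5-fold, beside 3.72% of all genes. The 8 had a median of 1.29, from 0.42 for Mertk to 1.60 for Csf1r. The summed level of all 10 was 71.3 FPKM in KO cells and 24.4 FPKM in WT cells, and Cd163 and Cx3cr1 were below 0.1 FPKM in both groups. The Igf1 level was under 0.2 FPKM in both groups, and the part of macrophages in it was not tested.

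Ins1, like Igfbp1, was listed at 0 in both groups. Of the 4 genes Igf1, Igf2, Ins1 and Ins2, Igf2 was thus the 1 with more than 1 FPKM.

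The receptor and its adaptor differed little. Igf1r, on chromosome 7 from 75097143 to 75378553, had 13.2 FPKM in the KO group against 12.9 in the WT group. Its log2 ratio was 0.03, with a counting error of 0.04 for the shortest transcript. Irs1, which couples the receptor to PI3K and lies on chromosome 1 from 82229680 to 82288014, had 15.6 FPKM in WT cells and 14.0 FPKM in cells without Tet2. Its ratio of -0.15, with a counting error of 0.02, lay inside the central 95% of all genes, with 19.1% of genes below it. Counting error leaves out the spread between libraries, so it does not show whether either gene differs between genotypes. Irs1 was 4.3 times as abundant as its relative Irs2 in Tet2 KO and 5.44 times in WT. The level of Igf1r was 2.07 times that of the insulin receptor gene Insr in Tet2 KO and 1.71 times in WT.

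The binding protein genes were examined next, and none of the 6 was past 1.5-fold. Their median log2 ratio was 0.02, with 3 above and 3 below 0. Summed over the 6 genes, their level was 234 FPKM in KO cells and 244 FPKM in WT cells, a log2 ratio of -0.06. The Igf2 level was 0.164 of this sum in Tet2 KO and 0.249 in WT.

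Igfbp2 and Igfbp3 were the binding protein genes with the lowest ratios. Igfbp2, whose protein carries an integrin-binding motif, lies on chromosome 1 from 72871054 to 72899045 and had 8.81 FPKM in the KO group against 11.9 in the WT group, a ratio of -0.39. Igfbp3, the main carrier of IGFs in serum, lies on chromosome 11 from 7106096 to 7113926 and had 63.8 FPKM in WT cells and 50.6 FPKM in cells without Tet2, a ratio of -0.33. Of all genes 5.25% lay below Igfbp2 and 6.83% below Igfbp3. Without the pseudocount the ratios were -0.43 and -0.33, with counting errors of 0.09 and 0.03 for the shortest transcript. Both genes were lower in Tet2 KO, and both stayed short of 1.5-fold.

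Igfbp5 and Igfbp4 had nearly equal levels in the 2 groups. Igfbp5, on chromosome 1 from 72904639 to 72921439, encodes a binding protein known to accumulate as myoblasts differentiate. Its values of 91.2 and 91.7 FPKM gave a ratio of -0.01, with 49.1% of all genes below it. The transcript of Igfbp5 thus did not share the ratio of the differentiation markers, whose smallest difference was -0.92. Igfbp4, on chromosome 11 from 98902574 to 98913957, encodes a binding protein that mostly restrains IGF action and is cleaved by the protease PAPP-A. It had 49.6 FPKM in KO cells and 48.0 FPKM in WT cells, a ratio of 0.05.

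Igfbp7 and Igfbp6 had the highest ratios. Igfbp7, on chromosome 5 from 77739509 to 77837070, had 28.3 FPKM in the KO group against 23.4 in the WT group. Its ratio of 0.26 was above that of 91% of genes. The counting error was 0.05 for the shortest transcript and leaves out the spread between libraries. Igfbp6, which prefers IGF2 over IGF1, lies on chromosome 15 from 101974617 to 101979943. It had 5 FPKM in WT cells and 5.61 FPKM in cells without Tet2, a ratio of 0.14, or 0.17 without the pseudocount beside a counting error of 0.12. Both genes are also known from fibroblasts and vessels. Of 10 fibroblast markers averaging at least 1 FPKM, 9 were above 0 and 3 were higher by at least 1.5-fold, beside 3.72% of all genes. Their median was 0.25, from -0.50 for Postn to 1.00 for Mfap5. Their summed level over 12 genes was 518 FPKM in KO cells and 474 FPKM in WT cells. Most of this sum came from Ly6a, with 288 FPKM in KO and 278 in WT cells, and Col3a1, with 171 and 152. The sum thus says little about the other markers. Of 8 endothelial markers 1, Pecam1, averaged at least 1 FPKM, with 1.48 and 1.63 FPKM, and the summed level was 4.68 FPKM in the KO group against 5.59 in the WT group. The part of fibroblasts or endothelial cells in the 2 ratios was not tested.

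The make-up of the binding protein transcripts differed by a few percent of their sum. Igfbp5 made up 39% in Tet2 KO and 37.6% in WT. The share of Igfbp3 was 21.6% in Tet2 KO and 26.2% in WT, and that of Igfbp4 was 21.2% and 19.7%. Igfbp7 gave 12.1% in Tet2 KO and 9.58% in WT, Igfbp2 gave 3.76% and 4.87%, and Igfbp6 gave 2.4% and 2.05%. Igfbp3 thus gave a smaller share in Tet2 KO, and Igfbp7 a larger one.

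**Figure D4:**
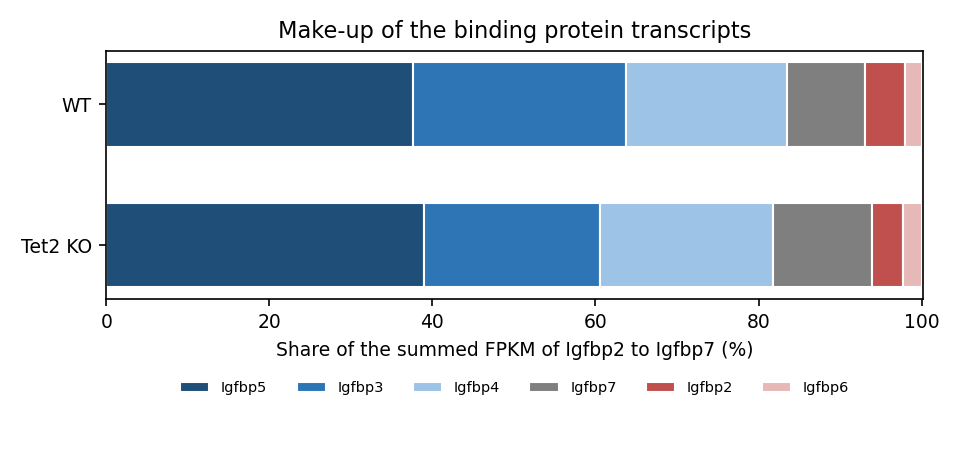
Share of each binding protein gene in the summed FPKM of Igfbp2 to Igfbp7 (x axis, percent) in WT (upper bar) and Tet2 KO (lower bar), each bar adding to the whole. Igfbp5 is the largest part in both, and the part of Igfbp3 is 26.2% in WT and 21.6% in Tet2 KO.

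The binding protein genes include 2 pairs that face each other on the chromosome. Igfbp2 on the plus strand and Igfbp5 on the minus strand of chromosome 1 end 5593 bases apart. Igfbp1, a binding protein gene of liver, and Igfbp3 are arranged in the same way on chromosome 11, with 3546 bases between them. In each pair the levels were far apart. Igfbp1 was listed at 0 in both groups beside 50.6 and 63.8 FPKM for Igfbp3, and Igfbp2 had 8.81 and 11.9 FPKM beside 91.2 and 91.7 FPKM for Igfbp5. In the pair on chromosome 1, the lower level in Tet2 KO was seen for Igfbp2 at -0.39 and not for Igfbp5 at -0.01.

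The other genes of the pathway, 88 in 8 lists, were compared in the same way. Of the 66 averaging at least 1 FPKM, 4 were higher by at least 1.5-fold and 0 were lower, beside 3.72% and 2.89% of all genes, and the median was -0.03. At 2-fold 2 were higher and 0 were lower, beside 2.08% and 1.21% of all genes. The genes past 1.5-fold were Esm1, Inpp5d, Stc1 and Ctgf. With a pseudocount of 0.1 or none, 6 genes were higher by at least 1.5-fold, beside 4.82% and 4.94% of all genes. The added ones were Pik3cd and Igf2bp3, which are named here after their values were seen.

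Of the other receptors and carriers, 2 of 8 genes reached an average of 1 FPKM, and both were below 0. Igf2r, whose product binds IGF2 and takes it to the lysosome, had 46.9 FPKM in WT cells and 35.9 FPKM in cells without Tet2, a ratio of -0.38, and Insr had -0.21. Igf2 was 1.07 times as abundant as Igf2r in Tet2 KO and 1.3 times in WT. Among 6 measured genes of the proteases that cleave binding proteins and of the stanniocalcins that inhibit PAPP-A, Stc1 was the 1 gene past the limit. It had 1.89 FPKM in KO cells and 0.668 FPKM in WT cells, a ratio of 0.79, and the lowest ratio was -0.31 for the protease gene Htra3. Pappa and Pappa2 themselves had less than 0.1 FPKM in both groups.

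The CCN genes and Esm1, whose proteins share a cysteine-rich module with the IGFBPs, had 4 measured members and a median of 0.35, which was 0.08 with no filter or with an average of at least 5 FPKM, and 0.64 with TPM. Esm1, which encodes endocan, had 3.62 FPKM in the KO group against 0.694 in the WT group, a ratio of 1.45. Ctgf, a matricellular gene, had 24.4 FPKM in WT cells and 38.3 FPKM in cells without Tet2, a ratio of 0.63. The lowest ratio of this list was -0.27 for Wisp1.

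Downstream of the receptor, the medians of the lists were near 0 and few genes differed by 1.5-fold. The 16 measured adaptor and feedback genes had a median of -0.04, from -0.34 for Shc2 to 0.52 for Socs1, a cytokine-induced inhibitor, and none was past 1.5-fold. Grb10, an imprinted adaptor that inhibits the receptor, had 70.6 FPKM in both groups. The 15 PI3K and AKT genes had a median of -0.03, from -0.46 for Inppl1 to 1.11 for Inpp5d. Inppl1 encodes the lipid phosphatase SHIP2, and Inpp5d encodes SHIP1, its relative of blood cells. Inpp5d had 3.25 FPKM in KO cells and 0.971 FPKM in WT cells and was past the limit. Pik3cd, which encodes the PI3K delta catalytic subunit of blood cells, had 3.26 FPKM in the KO group against 1.85 in the WT group. Its ratio of 0.58 was just short of 1.5-fold with the pseudocount of 1 and past it with 0.1 or none. The 15 genes of the mTOR arm had a median of -0.03, from -0.24 for Rps6kb2 to 0.23 for Eif4ebp2, with none past 1.5-fold. The 5 measured Foxo and Gsk3 genes had a median of -0.16, from -0.34 for Foxo3 to 0.05 for Gsk3a, again with none past 1.5-fold. Of the 3 measured genes of the list on Igf2 RNA control, the RNA-binding protein gene Igf2bp3 was highest, with 1.83 FPKM in the KO group against 1.06 in the WT group and a ratio of 0.46, and H19 was lowest.

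Leukocyte markers were higher in Tet2 KO throughout. All 14 were higher by at least 1.5-fold, beside 3.72% of all genes, in a list chosen with earlier results of these data known. Their median was 1.59, from 0.88 for Cd14 to 2.07 for Lyz2. The summed level was 514 FPKM in the KO group against 133 in the WT group. These values stand beside the higher levels of Inpp5d and Pik3cd, and their part in them was not tested. Among the IGF genes 1, Igf2, was lower by at least 1.5-fold, beside 2.89% of all genes. The part of the leukocyte and differentiated muscle differences in the ratios of the IGF genes was not tested.

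**Figure D5:**
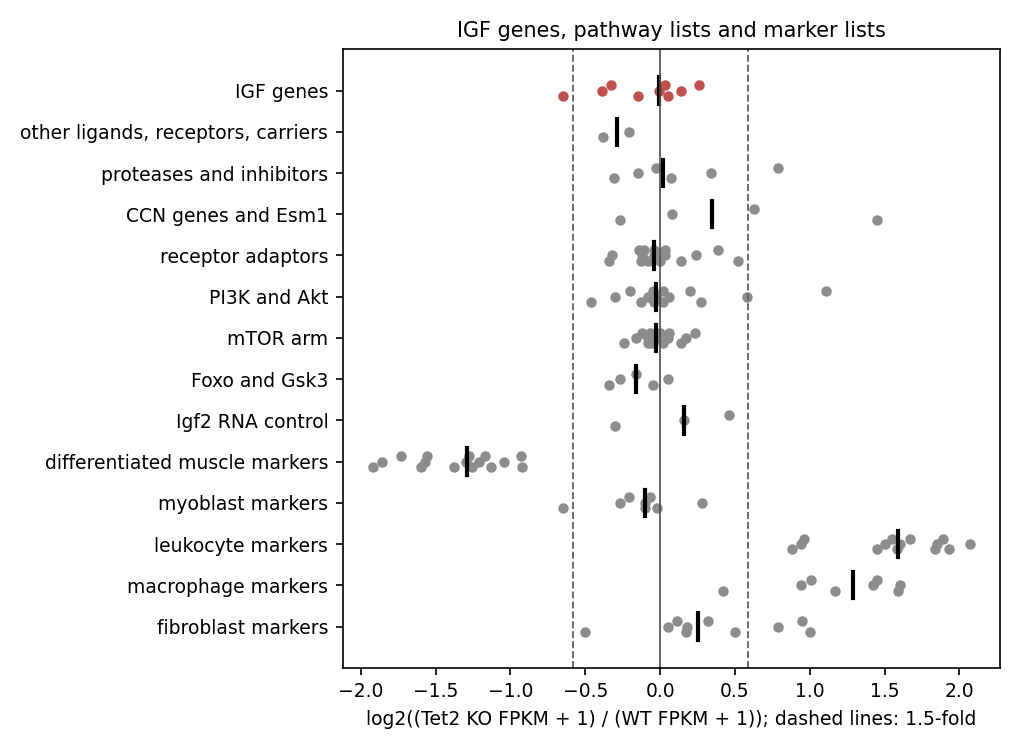
Log2 ratio of Tet2 KO to WT for each gene averaging at least 1 FPKM (points, x axis) in the IGF group, the 8 pathway lists and 5 of the marker lists (rows), with the median as a black bar and 1.5-fold as dashed lines. The 9 IGF genes lie between -0.65 and 0.26, the 16 differentiation markers all below and the 14 leukocyte markers all above the dashed lines.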

How the data were processed

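Total RNA of primary myoblasts was made into 2 WT and 2 Tet2 KO TruSeq RNA libraries. Read pairs were mapped by the authors to mm9 with TopHat2 2.0.13. The FPKM values were deposited by the authors as Cuffdiff 2.2.1 output, 1 per gene and group. The gene annotation and the way in which libraries were combined are not given in the sources used here. The authors' own comparison columns (log2 ratio, test statistic, p-value, q-value and its flag) were not used.

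From the FPKM, log2 ratios with a pseudocount of 1 were computed over genes averaging at least 1 FPKM and counted past 1.5-fold. The pseudocount understates differences of low genes. With 1 value per group no test was made. Fragment numbers were estimated from the steps of low values and full GENCODE vM1 transcript lengths, with no allowance for fragment size. Errors derived from them cover counting only and are no upper limits for short transcripts. Of the table's symbols 82.9% had 1 gene in that annotation, which is of the same build. Starts were increased by 1.

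The members and lists were chosen with earlier results of these data known. Named genes were the members, Tet2, the highest and lowest gene of each pathway and marker list, and pathway genes past 1.5-fold. Emr1 was read as Adgre1. Other genes were named after their values were seen. The 20 housekeeping genes gave a median ratio of 0.02, with Rps18 apart at 2.08. The scripts ran under Python 3.11.15 with pandas 2.3.3, numpy 2.4.6 and matplotlib 3.10.9.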

Additional observations from a re-analysis of the deposited data

How the results depend on the processing

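The 8 alternatives were a pseudocount of 0.1 or none, no filter or an average of at least 5 FPKM, TPM, centring on the median of all genes or of the housekeeping list, and 2-fold in place of 1.5-fold. The count of 1 member lower and 0 higher held under 7 of them. At 2-fold the count of members lower was 0. The ratio of Igf2 ran from -0.68 to -0.65, and that of Igfbp5 from -0.03 to 0. The count of pathway genes higher moved from 4 to 1 with an average of at least 5 FPKM and to 2 at 2-fold, the former by construction, since Esm1, Inpp5d and Stc1 average below 5 FPKM. It was 6 with a pseudocount of 0.1, with none and with TPM, and 5 with no filter. The share of all genes higher was 4.82%, 4.94%, 4.69% and 2.2% in the same order. That share was 2.05% with an average of at least 5 FPKM and 2.08% at 2-fold. The median of the CCN list moved from 0.35 to 0.08 with no filter or the stricter one and to 0.64 with TPM. That of the receptor and carrier list moved from -0.29 to -0.10 with no filter, and that of the Igf2 RNA control list from 0.16 to -0.07 with the stricter one. These medians moved by construction, as genes entered or left the lists, the limit of 1 being applied to TPM values under TPM. With the stricter filter the Igf2 RNA control list, for example, kept Igf2bp2 at 0.16 and H19 at -0.30. Over all genes, 435 higher and 338 lower became 182 and 207 with an average of at least 5 FPKM, and 243 and 142 at 2-fold. No paired analysis was possible because the table holds 1 value per group and none per library, and for the same reason no library could be left out. The distance between the 2 libraries within a group is unknown.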
